A study of Mus musculus with 6 samples.

Results

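The AP-1 and immediate early genes described here are Fos, Fosb, Jun, Junb, Jund, Egr1, Atf3, Dusp1, Ier2 and Zfp36. They were chosen by name, as the rows of the count table with these symbols. All 10 of 10 were found among 14943 symbols, and all 10 were among the 13980 genes with enough reads to be tested. Their expression was measured by polyA-selected RNA sequencing of peritoneum, the membrane lining the abdomen, of C57BL/6J mice, which were wild-type males and 8 weeks old. The EPS group (3 libraries) models encapsulating peritoneal sclerosis, in which scar tissue wraps the gut. These mice were given 4.25% peritoneal dialysis solution (100 mL/kg) and 0.3 mL of SHS into the abdomen each day and lipopolysaccharide (LPS), a bacterial endotoxin, at 4 mg/kg once a week. The control group (3 libraries) received saline by the same route and in equal volume. Both groups were killed in the 3rd week. The EPS mice had all agents together, so the effects of the dialysis fluid, SHS and LPS cannot be told apart, and the interval from the last injection to sampling is not given in these sources.

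Immediate early genes are transcribed within minutes of a stimulus, without new protein synthesis, and their mRNAs are short-lived. AP-1 is a dimer of basic leucine zipper proteins, usually a JUN protein with a FOS, JUN or ATF partner, and it is switched on by the MAP kinases after growth factors, cytokines, stress and bacterial products. DUSP1 and ZFP36 are brakes of the same response: the first removes phosphate from MAP kinases, the second speeds the decay of inflammatory mRNAs.

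Junb, Atf3 and Ier2 rose in EPS and Dusp1 fell, while Fos, Fosb, Jun, Jund, Egr1 and Zfp36 did not pass the test. Junb rose 5.19-fold (log2 fold change 2.38 ± 0.14, SE) and Dusp1 was 3.66-fold lower (-1.87 ± 0.25). Jun was level between the groups (-0.02 ± 0.10). By edgeR's quasi-likelihood test with Benjamini-Hochberg adjustment over all tested genes, 3 of the 10 were higher and 1 was lower, against 59.6% of all tested genes called in either direction (29.2% higher and 30.4% lower). The 10 genes thus held a smaller share of calls, 40.0%, than the table as a whole, which is a description and not a test. Their median log2 fold change was 0.31, beside -0.02 over all tested genes. The same 4 members were the ones whose groups did not overlap, a state that 68.5% of all tested genes were in (33.1% with EPS above and 35.4% with EPS below).

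**Figure D1:**
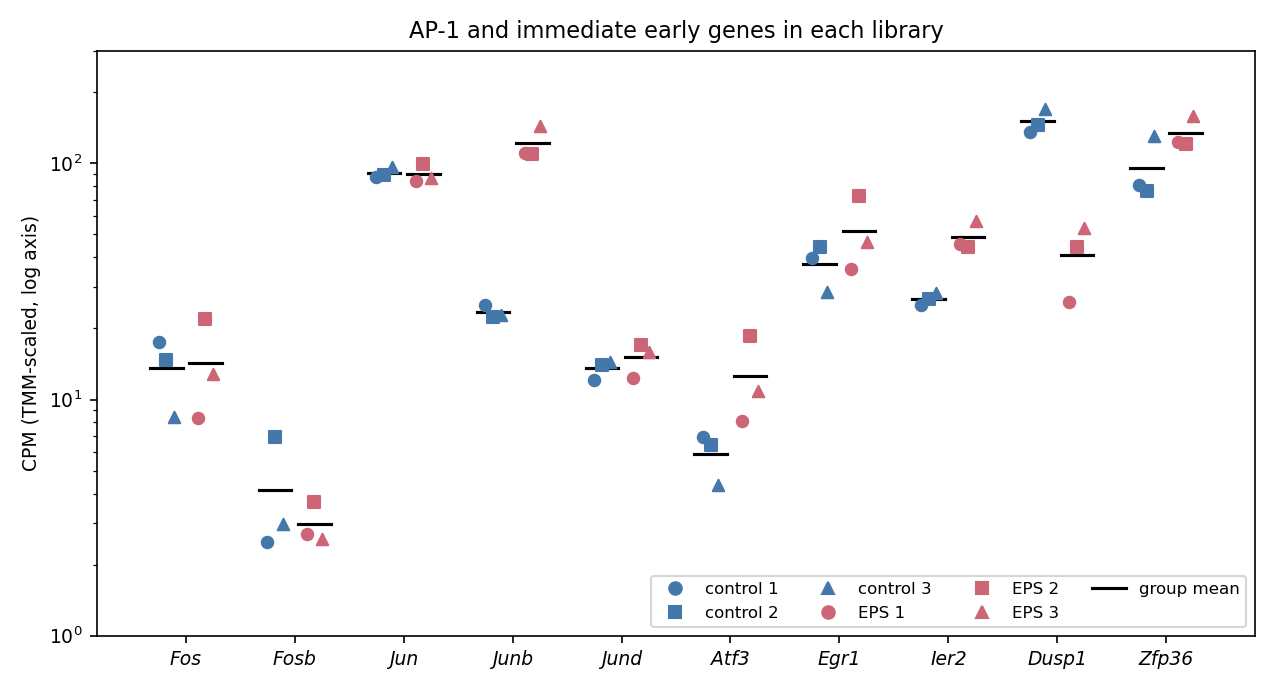
CPM (counts scaled to the TMM-adjusted library size, log axis) of each member in each library, blue for control and red for EPS, with black bars for group means. Junb, Atf3 and Ier2 lie above all controls in every EPS library, Dusp1 lies below, and the other 6 overlap.

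The libraries held between 15419232 and 17684229 counts, and the members had between 35 and 3209 counts per library. EPS 1 stood apart from the other libraries by its RNA of the exocrine pancreas, with a summed level of 132200 CPM over 8 marker genes, against 130.8 in EPS 2, 427 in EPS 3 and 257 to 2971 in controls. Leaving those genes out of the library sizes left 3 members higher and 1 lower. Without EPS 1, 4 members were higher and 1 lower, because Egr1 then passed. Markers of the mesothelium, the surface layer of the peritoneum, were present in both groups, at 123.6 to 194 CPM summed over 6 genes in controls and 39.8 to 204 CPM in EPS, and none of the 6 was called.

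The 250 bases before the start site are shown for Junb, which rose most, for its relative Jun, which did not move, and for Dusp1, which fell. They are RefSeq promoter sequences on GRCm38.p6, the assembly that mm10 denotes, read 5′ to 3′ on the gene's strand, and all 3 genes lie on the minus strand, at chr8:84978749-84978998 for Junb, chr4:95052223-95052472 for Jun and chr17:26508473-26508722 for Dusp1. Capitals mark TGACGTCA, the full cyclic AMP response element, TGACG, its first part, and TGACATCA, an octamer known from the Jun promoter.
Junb: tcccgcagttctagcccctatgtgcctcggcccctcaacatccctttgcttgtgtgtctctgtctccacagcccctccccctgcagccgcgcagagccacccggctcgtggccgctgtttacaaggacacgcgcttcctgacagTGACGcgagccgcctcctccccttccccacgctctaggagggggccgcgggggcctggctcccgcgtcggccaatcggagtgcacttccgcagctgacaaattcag
Jun: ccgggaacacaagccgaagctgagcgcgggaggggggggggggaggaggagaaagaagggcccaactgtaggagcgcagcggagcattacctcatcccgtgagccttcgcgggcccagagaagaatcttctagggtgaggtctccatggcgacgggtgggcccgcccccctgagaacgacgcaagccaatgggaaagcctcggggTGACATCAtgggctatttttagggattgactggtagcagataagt
Dusp1: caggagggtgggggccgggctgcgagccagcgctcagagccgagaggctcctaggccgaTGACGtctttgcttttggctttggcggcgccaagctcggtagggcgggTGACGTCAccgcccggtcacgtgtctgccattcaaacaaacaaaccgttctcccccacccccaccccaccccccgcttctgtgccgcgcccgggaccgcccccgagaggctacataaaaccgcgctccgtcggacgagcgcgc
The Dusp1 window holds 1 full element, 143 to 136 bases before the start, and a separate TGACG at 191 to 187 bases. The Junb window holds 1 TGACG, 106 to 102 bases before the start, and the Jun window holds the octamer at 45 to 38 bases. Searched on both strands in the same 250 bases of 32817 mouse promoters, TGACGTCA was in 1.55%, TGACATCA in 2.93% and TGACG, which the full element contains, in 17.7%. Egr1 and Ier2 were not searched, so nothing is stated about sites in their promoters. Promoter entries of the other 8 of the 10 members were searched. Among these, TGACG was in Fos, Fosb, Junb, Atf3 and Dusp1, which include members that rose, fell and did not pass. The AP-1 site TGACTCA (4.46% of promoters) was in none of the 8, TATAAA (12.4%) was in Fos, and the CArG box, the sequence bound by serum response factor (1.47%), was in Zfp36. These matches describe letters in the window and not binding, and sites outside these 250 bases were not searched.

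Among the JUN genes, which supply the obligate partner of FOS proteins, Junb alone passed. Junb encodes a JUN protein known as a weaker activator of many AP-1 sites and as a partner of BATF in lymphocytes. It was at 25.1, 22.4 and 22.8 CPM in controls 1 to 3 and at 110.9, 110.1 and 144 CPM in EPS 1 to 3. Every EPS library was thus at least 4.70 times the control mean, and the groups were far apart. The adjusted p was 5.03e-06, and 9.13% of tested genes had a higher log2 fold change. The call held in all 17 alternatives, with log2 fold changes between 2.24 and 2.81. The gene body, on chromosome 8 from 84974484 to 84978718, shares 173 of its 2301 exon bases with Prdx2 on the other strand, and the library protocol names no strand-marking step. Prdx2, which encodes a peroxiredoxin, was lower in EPS (-0.45 ± 0.12, adjusted p = 0.012).

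Jun, which encodes the classical transactivating partner, was at 87.3, 89.4 and 96.4 CPM in controls and 84.3, 99.0 and 86.8 CPM in EPS. The groups lay within each other, and no sample stood out. The 95% interval of its log2 fold change, -0.25 to 0.22, excludes a change of the size seen for Junb (adjusted p = 0.906). Its sign depended on scaling, being positive with RLE, upper-quartile and library-total scaling, and it passed in none of these. Jund, a JUN gene that is usually expressed steadily in resting cells, was at 12.1, 14.0 and 14.5 CPM in controls and 12.3, 17.1 and 15.9 CPM in EPS (0.16 ± 0.17, 95% interval -0.24 to 0.55, adjusted p = 0.446). EPS 1 lay among the controls and the other two EPS libraries above them.

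Per kilobase of annotated exon, which allows genes to be compared with each other, Jun made up 60.9% ± 0.95 (SD, n = 3) of JUN family mRNA in controls and 31.5% ± 3.75 in EPS. Junb rose from 21.8% ± 1.94 to 58.5% ± 4.66 of the family, and the summed level went from 46.9 ± 1.70 to 90.1 ± 8.64 CPM per kb. The ratio of Junb to Jun, per kb, was 0.399, 0.347 and 0.327 in controls and 1.82, 1.54 and 2.30 in EPS. The main JUN transcript was therefore Jun in all 3 controls and Junb in all 3 EPS libraries. An exact two-sided permutation test of this ratio on the log2 scale gave p = 0.1, the smallest that 3 against 3 allows, and 0.3 after adjustment over the 3 ratios tested. The other ratios, Jund to Jun (exact p = 0.3) and Fosb to Fos (exact p = 0.6), had overlapping groups.

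**Figure D2:**
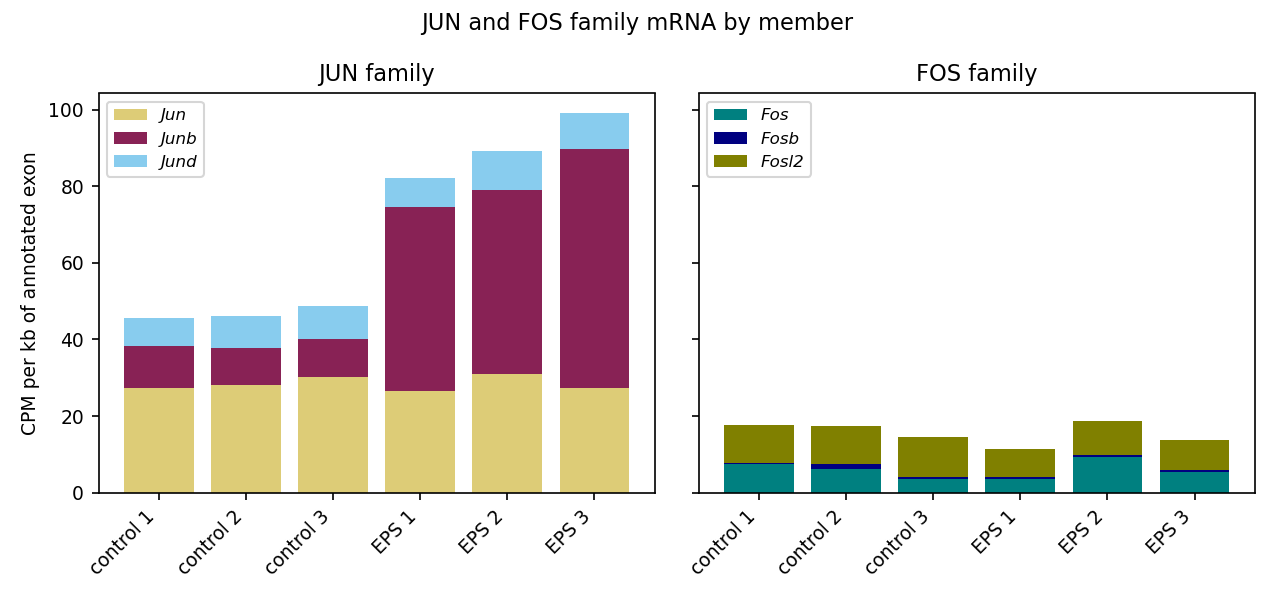
Stacked bars of CPM per kb of annotated exon in each library, for the JUN genes on the left and the FOS genes Fos, Fosb and Fosl2 on the right. The Junb part grows in all 3 EPS libraries while the Jun part stays between 26.4 and 31.0, and the FOS stack stays between 11.5 and 18.7.

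Fos and Fosb, whose products dimerise only with partners such as JUN, did not pass. Fos, the prototype immediate early gene (chromosome 12, 85473890 to 85477273), was at 17.5, 14.7 and 8.47 CPM in controls and 8.32, 21.9 and 12.8 CPM in EPS. The spread within each group was over 2-fold, with the highest EPS library 2.63 times the lowest. The log2 fold change was 0.09 ± 0.39 with a 95% interval from -0.84 to 1.01 (adjusted p = 0.864), so a change of up to about that size in either direction was not resolved. Its sign turned without control 3 (-0.17) and without EPS 2 (-0.35). Fosb was the least abundant member, at 2.50, 6.94 and 2.98 CPM in controls and 2.70, 3.67 and 2.58 CPM in EPS. Control 2 alone lay above the rest, and without it the log2 fold change went from -0.47 ± 0.43 to 0.12 (adjusted p = 0.365 with all libraries). Summed with Fosl2, these FOS genes stood at 16.5 ± 1.69 CPM per kb in controls and 14.6 ± 3.71 in EPS. Fosl1 is not in this sum.

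Atf3 encodes a stress-induced AP-1 partner that often represses inflammatory genes. It was at 6.93, 6.41 and 4.37 CPM in controls and 8.11, 18.7 and 10.9 CPM in EPS. All EPS libraries were above all controls, but EPS 1 by a small margin. The log2 fold change was 1.09 ± 0.34 (adjusted p = 0.0225). The call depended on single libraries. It was lost when control 2 (adjusted p = 0.0592), control 3 (0.0812) or EPS 2 (0.0664, log2 fold change 0.69) was left out and with controls 1 and 2 averaged as 1 sample (0.0523), within a range over all alternatives of 0.00271 to 0.0812.

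Egr1 encodes a zinc finger factor induced through serum response factor. Its level was 39.6, 44.1 and 28.6 CPM in controls and 35.8, 73.1 and 46.3 CPM in EPS. EPS 1 fell inside the control range and EPS 2 and EPS 3 above it. It did not pass with all libraries (0.47 ± 0.28, 95% interval -0.19 to 1.13, adjusted p = 0.185), and passed without EPS 1 (0.74, adjusted p = 0.0278) and with library totals only (0.94, 0.0449), in a range from 0.0278 to 0.597 over the alternatives. Ier2, which encodes a small nuclear protein of the early response (chromosome 8, 84661331 to 84662852), was at 25.1, 26.6 and 28.2 CPM in controls and 45.4, 44.3 and 57.3 CPM in EPS. Both groups were tight and well apart. Ier2 rose 1.84-fold (0.88 ± 0.13, adjusted p = 6.27e-04), and the call held in all 17 alternatives.

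Of the brakes, only Dusp1 passed the test. Dusp1, the dual-specificity phosphatase that inactivates p38 and JNK, was the only member that fell and had the highest control level of all 10. It was at 136.5, 145 and 170.5 CPM in controls and 25.9, 44.2 and 53.2 CPM in EPS. Even the highest EPS library was below 0.36 of the control mean, and EPS 1 was the lowest. The adjusted p was 5.08e-04, 6.27% of tested genes had a lower log2 fold change, and the call held in all 17 alternatives, between -2.10 and -1.40. Its exons share 11 of 3311 bases with Ergic1 on the other strand, which was also lower in EPS (-0.78 ± 0.13, edgeR adjusted p = 0.00101). Zfp36, which encodes tristetraprolin, was at 80.8, 76.3 and 131 CPM in controls and 123, 121 and 159 CPM in EPS. Control 3 lay among the EPS libraries and controls 1 and 2 below them. The log2 fold change was 0.49 ± 0.22 (adjusted p = 0.0955). Without control 3 it was 0.77 and passed (adjusted p = 0.00671), and it also passed with DESeq2 (0.0368) and library totals only (0.0115), in a range over the alternatives of 0.00671 to 0.273.

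**Figure D3:**
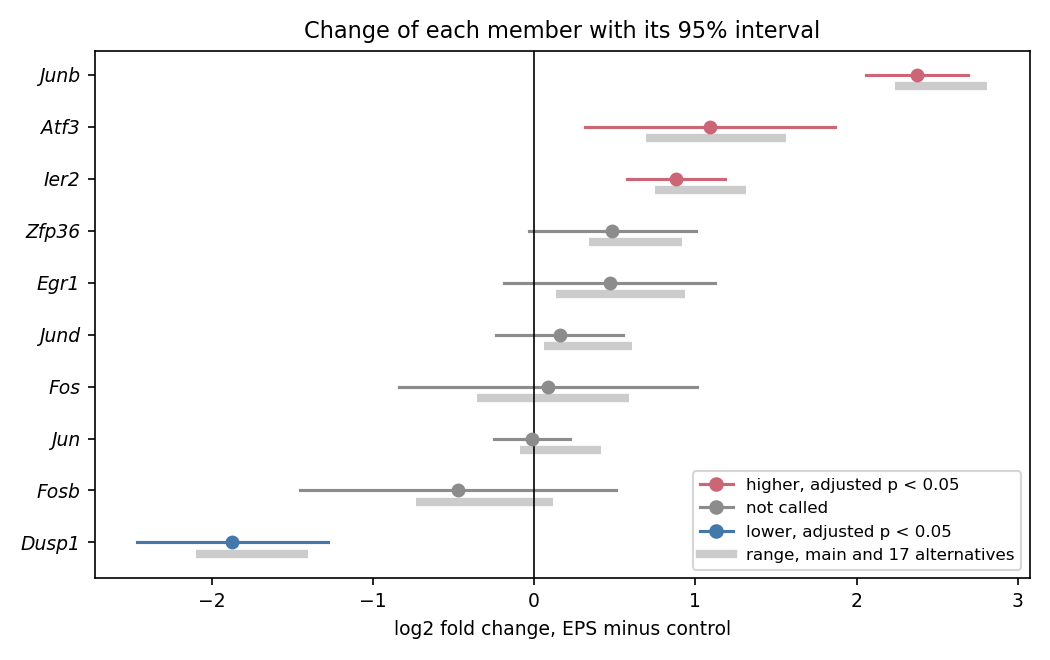
Log2 fold change (EPS minus control) of each member, as a point with its 95% interval, red for higher, blue for lower and grey for not called. The pale bars are the range over the main fit and 17 alternatives. They stay on 1 side of 0 for Junb, Atf3, Ier2 and Dusp1, and also for Jund, Egr1 and Zfp36, which were not called. They cross 0 for Fos, Fosb and Jun.

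The order of the members by level changed between the groups. In controls, per kb of exon, Dusp1 led with 45.5 ± 5.35, followed by Jun (28.6 ± 1.48), Zfp36 (27.7 ± 8.71), Ier2 (17.5 ± 1.00), Junb (10.2 ± 0.65), Egr1 (8.35 ± 1.79), Jund (8.12 ± 0.74), Fos (5.76 ± 1.97), Atf3 (2.74 ± 0.63) and Fosb (0.66 ± 0.39). The ranges of the libraries overlapped for the neighbours Jun and Zfp36, Junb and Egr1, Egr1 and Jund, and Jund and Fos. In EPS, Junb led with 52.9 ± 8.36, above Zfp36 (38.7 ± 6.15), Ier2 (32.2 ± 4.73) and Jun (28.2 ± 2.46), and Dusp1 was 5th with 12.4 ± 4.19. The range of Junb in EPS lay above that of Zfp36, while Zfp36 and Ier2, and Ier2 and Jun, overlapped. The range of Dusp1 in EPS overlapped those of Egr1 (mean 11.5), Jund (9.05), Fos (6.09) and Atf3 (5.83). Its order against these was not resolved. Lengths are the union of all exons annotated in GENCODE vM21, so a transcript that is not made in this tissue would lower its gene's value.

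The EPS library with the highest level was not the same for all members. Each such maximum is 1 library, and the shares over all tested genes were not counted. Fos, Fosb, Jun, Jund, Egr1 and Atf3 were highest in EPS 2, and Junb, Ier2, Zfp36 and Dusp1 were highest in EPS 3. Fos, Jun, Jund, Egr1, Atf3 and Dusp1 were lowest in EPS 1. Within EPS, Fos, Atf3, Dusp1 and Egr1 varied 2.63, 2.30, 2.05 and 2.04-fold from the lowest to the highest library, against 1.17-fold for Jun, 1.29-fold for Ier2 and 1.31-fold for Junb and Zfp36. Smooth muscle markers were also highest in EPS 2, at a summed 3402 CPM over 5 genes. EPS 1 and EPS 3 had 1265 and 1154 CPM. The marker sums of fibroblasts, mesothelium, skeletal muscle and adipocytes were highest in EPS 2 as well. Neutrophil markers were highest in EPS 3, at 2045 CPM over 9 genes against 624.5 and 868 CPM. So were the sums of T and NK cell, B cell and blood endothelial markers. Macrophage and pancreas sums were highest in EPS 1. The part of any of these cell types in the differences between EPS libraries was not tested.

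**Figure D4:**
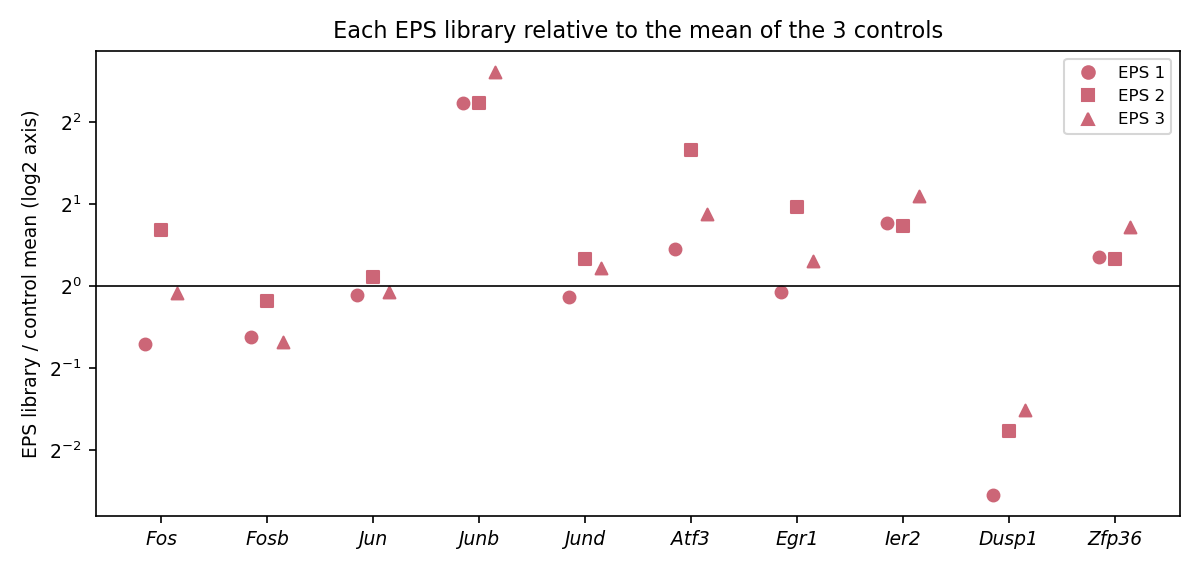
Level of each member in EPS 1 (circle), EPS 2 (square) and EPS 3 (triangle) divided by the mean of the 3 controls, on a log2 axis where the line at 1 marks no difference. EPS 2 is on top for Fos, Fosb, Jun, Jund, Atf3 and Egr1, EPS 3 for Junb, Ier2, Dusp1 and Zfp36, and the 3 Jun points lie between 0.926 and 1.09.

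Profiles over the 6 libraries were compared by the root mean square difference of log2 CPM, each gene centred on its own mean. This measure is also small between genes that change little, such as Jun, so closeness does not show shared regulation. The closest pairs of members were Jun and Jund (0.135), Ier2 and Zfp36 (0.273), and Fos and Egr1 (0.279), and the farthest pair was Junb and Dusp1 (2.16). Among 11991 other genes, those most like Jun were Reep3 (0.023), Tjap1 (0.035) and Rad21 (0.035). Those most like Fos were Tmem200b (0.207), Id4 (0.209) and Zfp365 (0.214), and those most like Egr1 were Gnaz (0.136), Hlf (0.150) and Gpsm2 (0.153).

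Other AP-1 family and partner genes moved in both directions. Of 12 tested, 5 were called up and 4 down, and the median log2 fold change was 0.03. Counts of this list and of those that follow stand beside 29.2% higher and 30.4% lower over all tested genes. Batf, a lymphocyte partner of JUN proteins, rose from 1.00 to 17.4 CPM on average (4.11 ± 0.35). Maf, a large MAF factor, rose by 0.98 ± 0.10, and Batf2, an interferon-induced relative, by 1.93 ± 0.28, with adjusted p of at most 5.59e-04 for these 3 genes by edgeR. The 4 that fell had log2 fold changes from -0.74 to -0.29. Their count was 1 without control 1, control 3 or EPS 1, and 2 without control 2. Among these was the FOS gene Fosl2 (-0.32 ± 0.10, adjusted p = 0.0245), named because it enters the FOS sum above. Fosl1, Zfp36l3, Csf2, Il6, Il23a, Mmp10, Mmp13, Il2 and Mt2, which belong to this list and the lists that follow, are not analysed here.

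Of 23 other immediate early genes, 11 rose and 5 fell (median log2 fold change 0.61). Egr3, a relative of Egr1, was at 1.79, 2.58 and 2.65 CPM in controls and 23.8, 20.3 and 28.0 CPM in EPS (3.36 ± 0.22, adjusted p = 9.18e-06). Its groups were wide apart, unlike those of Egr1. Gadd45b, a stress sensor that feeds into MAP kinase signalling, rose by 3.43 ± 0.24, Myc, the growth regulator, by 2.06 ± 0.15, and Ier5 by 2.14 ± 0.23. The 5 that fell were Rhob, Errfi1, Klf4, Ccn1 and Klf10, named after their values were seen, with log2 fold changes from -2.10 for Rhob to -0.32 for Klf10.

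Genes that carry the signal to these promoters also moved both ways. Of 7 genes of serum response factor (SRF) and its partners, 3 were higher and 2 lower (median 0.29). The SRF coactivator gene Mrtfa rose by 1.69 ± 0.16 and Creb1, whose product binds the cyclic AMP response element, by 0.98 ± 0.14. Of the ternary complex factors, Elk4 rose by 0.39 ± 0.09 and Elk1 was lower (-0.74 ± 0.15), though not with library totals only (adjusted p = 0.322, against 0.0036 by edgeR with TMM, over a range of 0.00103 to 0.322). Of 18 MAP kinase genes, 4 were higher and 4 lower (median -0.14), with 2 lower without control 1. Larger shares of all tested genes were called, 29.2% higher and 30.4% lower. Map3k1, an upstream kinase of JNK, rose by 1.40 ± 0.10, Mapk11 (p38 beta) by 1.42 ± 0.21 and Map3k8 by 1.05 ± 0.22. Mapk3, which encodes ERK1, was at 251 CPM in controls and 149 CPM in EPS (-0.75 ± 0.09), and did not pass with library totals only (adjusted p = 0.182, the highest over the alternatives, whose lowest was 4.52e-10).

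Of 9 other MAP kinase phosphatase genes, 4 rose and 3 fell (median 0.43). Dusp2, an inducible nuclear phosphatase of immune cells, was at 1.00, 1.65 and 1.85 CPM in controls and 15.1, 16.7 and 27.9 CPM in EPS (3.72 ± 0.34, adjusted p = 4.29e-05). Dusp5 rose by 3.60 ± 0.38 and Dusp7 by 1.07 ± 0.11, both ERK phosphatases, and Dusp8 was lower (-1.50 ± 0.29). Only 1 was lower without control 1, control 2, EPS 1 or EPS 2. Of the ZFP36 relatives, Zfp36l1 rose by 0.53 ± 0.12 and Zfp36l2 was not called (0.21 ± 0.20).

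Among inflammatory mRNAs that ZFP36 is known to destabilise, 6 of 7 tested rose and none fell (median 4.75). Tnf was at 0.928, 0.330 and 0.265 CPM in controls and 12.1, 9.49 and 9.71 CPM in EPS (4.35 ± 0.44, and 5.09 without control 1). Ccl2, a monocyte chemokine, rose by 2.96 ± 0.36. Il1b and Cxcl2 had few control reads and rose by 6.66 ± 0.85 and 4.75 ± 0.67 (7.56 and 5.66 without control 2), all 4 with edgeR adjusted p of at most 4.79e-04. Ptgs2, the gene of cyclooxygenase 2, is the one left over and was picked out with its values known. It stood at 110.1 CPM in EPS 2 and at 2.91 and 1.14 CPM in EPS 1 and EPS 3, and did not pass (adjusted p = 0.123). EPS 2 was also the library with the highest Fos, Egr1 and Atf3. Of 13 textbook AP-1 targets, 10 rose and 1 fell (2 fell without EPS 1), and the median was 1.72. Cd44, the hyaluronan receptor, Hmox1, heme oxygenase, and Tgfb1 rose by 2.73 ± 0.12, 2.09 ± 0.16 and 1.72 ± 0.14, and Vegfa, the vascular growth factor, was at 286 CPM in controls and 83.9 CPM in EPS (-1.77 ± 0.14).

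**Figure D5:**
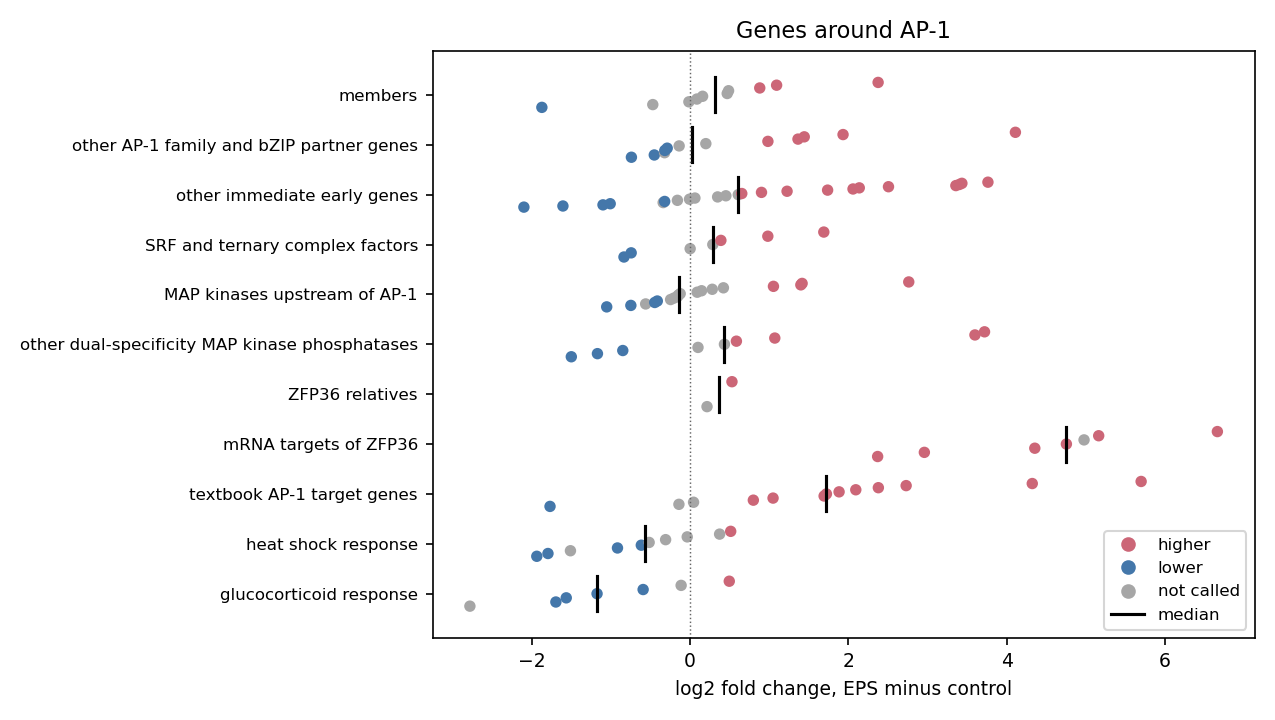
Log2 fold change (EPS minus control) of each tested gene in the members and in 10 related lists, red for higher, blue for lower and grey for not called, with a black bar at each list's median. The medians run from -1.18 for glucocorticoid response genes to 4.75 for mRNA targets of ZFP36.

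Immediate early genes also respond to handling, heat and glucocorticoids, so genes of those responses are given beside them. Of 10 heat shock response genes, 1 was higher and 4 lower (median -0.57). Hspb1 and Hspa1a, both inducible chaperones, fell by 1.80 ± 0.15 and 1.94 ± 0.45, Hspd1 by 0.92 ± 0.15 and Bag3 by 0.62 ± 0.13. The 1 higher was 0 without control 1, control 2 or EPS 3, and 2 without EPS 2. Bag3 was not called with library totals only (adjusted p = 0.483, with 0.00396 by edgeR with TMM, over a range of 5.39e-04 to 0.483). Neither Bag3 nor Hspa1a (adjusted p = 0.0716) was called without EPS 1 when controls 1 and 2 were averaged. Of 7 glucocorticoid response genes, a set of which Dusp1 and Zfp36 are also known targets, 1 was higher and 4 lower (median -1.18). Per1 fell by 1.56 ± 0.23, Cdkn1a by 1.70 ± 0.39, Sgk1 by 0.59 ± 0.16 and Tsc22d3 by 1.18 ± 0.41. The 4 lower were 2 without EPS 1 or EPS 3. The 1 higher was 0 without control 1, control 2, EPS 1 or EPS 3, and 2 without control 3. Cdkn1a lost its call without EPS 3 (adjusted p = 0.0559), Sgk1 without EPS 1 (0.0551) and with library totals only (0.566), and Tsc22d3 in 8 of 17 alternatives: without any 1 of the EPS libraries, with RLE (0.0616), upper-quartile (0.0542) and library-total scaling, with no filter (0.0539), and with controls 1 and 2 averaged without EPS 1 (0.00249 to 0.193 over all alternatives). Control 3 held the highest value of these 4 genes. Tsc22d3 was at 377 CPM there, against 146 and 155 CPM in controls 1 and 2. Among controls it also held the highest Dusp1, Zfp36, Jun, Jund and Ier2, and the lowest Fos, Egr1 and Atf3. The part of handling or stress hormone in the members' values was not tested.

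In whole tissue, less of an mRNA per cell and fewer cells that make it cannot be told apart. The 9 neutrophil marker genes summed to 4.56 to 5.50 CPM in controls and 624.5 to 2045 CPM in EPS, and all 9 rose. All 6 T and NK cell genes and all 5 B cell genes tested rose, from 3.51 to 5.50 CPM up to 224 to 416 CPM and from 6.15 to 10.1 CPM up to 453 to 747 CPM. Of 8 macrophage genes 7 rose, with sums of 680.2 to 748 CPM in controls and 3395 to 4240 CPM in EPS. All 7 adipocyte genes fell, from sums between 15960 and 16810 CPM to between 1161 and 1766 CPM, and all 5 blood endothelial genes fell, from 1762 to 1829 CPM to between 757 and 974 CPM. Of 5 smooth muscle genes 3 fell, from sums of 4505 to 4975 CPM to between 1154 and 3402 CPM, and of 7 fibroblast genes 5 rose, from 2978 to 3201 CPM up to 5774 to 10060 CPM. Of 5 skeletal muscle genes 2 rose and 1 fell, with sums of 32.9 to 48.4 CPM in controls and 7.83 to 68.2 CPM in EPS, and none of the 8 pancreas genes was called. No marker of these lists was at 0 in all libraries of a group. Junb, Atf3 and Ier2 were thus higher in the group with more leukocyte and fibroblast RNA. Dusp1 was higher in the group with more adipocyte, endothelial and smooth muscle RNA. With only 2 groups the same holds for any gene called higher or lower, so it ties no member to a cell type. The part of cell composition in these differences was not tested.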

How the data were processed

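Raw read counts per gene symbol were used as the authors deposited them, as whole numbers with no normalization. Genome build mm10 is named in the submitters' processing notes. The aligner, counter and annotation were not stated in these sources. Genes were filtered with filterByExpr, scaled by TMM and tested with edgeR 4.0.16 (R 4.3.3) by quasi-likelihood with robust dispersions and no covariates, 3 EPS against 3 control libraries. Calls were made at 0.05 after Benjamini-Hochberg adjustment over all 13980 tested genes. CPM means carry the SD of 3 libraries, and log2 fold changes their SE. The script was tested on simulated data with 200 changed genes and a dispersion of 0.05. That is far fewer changed genes than were called here, so it does not test the scaling under such a shift. The labels do not say whether libraries came from separate animals, so p-values measure only the spread between these samples, which may be technical. Controls 1 and 2 were the closest pair (mean chi-square per gene 4.41, against 15.9 and 16.4 with control 3) but differed beyond sampling noise and were kept as 2 samples. Alternatives were RLE, upper-quartile and library-total scaling, pancreas genes left out of library sizes, 2 other filters, DESeq2 1.42.0, limma-voom (limma 3.58.1), a replicate block, each library left out, and controls 1 and 2 averaged, also without EPS 1. The members and gene lists were chosen with earlier results of these data known. From each list, up to 4 called genes of lowest adjusted p are named, and for Fos, Jun and Egr1 the 3 genes of most similar profile among those with a mean count of at least 50. Some genes that meet this rule are left out of the text. Of 14943 symbols, 14673 were found in GENCODE vM21 (GRCm38).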

Additional observations from a re-analysis of the deposited data

How the results depend on the processing

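Junb, Ier2 and Dusp1 kept their direction and their call in all 17 alternatives, and Atf3 kept its direction in all and its call in 13. With library totals only, which moved the median tested gene to a log2 fold change of 0.41 from -0.02, 5 members were higher and 1 lower, with Egr1 (0.94, adjusted p = 0.0449) and Zfp36 (0.92, 0.0115) added, and over all genes 5657 were higher and 2182 lower, against 4088 and 4245. Jun changed sign with RLE factors (0.038), upper-quartile factors (0.025), library totals (0.42), DESeq2 (0.038) and controls 1 and 2 averaged without EPS 1 (0.095), and passed in none. Leaving out 1 library at a time gave 2 to 4 members higher and 1 lower, and log2 fold changes of -0.087 to 0.099 for Jun, -0.35 to 0.42 for Fos and -0.74 to 0.12 for Fosb. With the replicate number as a block, 4 members were higher, Zfp36 added (0.52, adjusted p = 0.00954), and 1 lower, with 3947 and 4166 over all genes. Deviations from the group mean correlated at 0.20, -0.095 and 0.24 between same-numbered libraries, and at -0.317 to 0.195 between the others. With 3 libraries per group, this check cannot decide whether the numbers are pairs. The labels name no pairing, and the main fit took none. The members had at least 35 counts in every library.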
